A study of Mus musculus with 6 samples.

Results

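Vesicle exocytosis and its SNARE machinery were followed in N2a cells, a mouse neuroblastoma cell line, after knockdown of the circular RNA circRtn4. The genes were taken by name from the deposited expression table. They are the protein-coding synaptotagmins (Syt, Sytl), syntaxins (Stx) and syntaxin-binding proteins (Stxbp), the Snap and Vamp genes, synapsins, synaptophysin, synaptogyrins, Sv2 proteins, complexins, Unc13 and Rims proteins, the Rab3 GTPases, and Nsf with its adaptors. This gave 88 of the 54532 genes listed. RNA was sequenced from cells given a control siRNA (si-NC, 3 libraries) or an siRNA against the circular RNA (si-circRtn4, 3 libraries). All 6 carry the strain label C57BL/6, and no other allele or agent is named. The study gives this strain for its mice and primary neurons and names none for the N2a line, so the label is repeated here as given. The labels give the growth medium only, whereas the study's general methods change N2a cells to a retinoic acid medium after transfection, so that cells of either state could have been sequenced. Nothing states that the replicates were separate cultures, so the p-values below measure the spread between these libraries.

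Release of a vesicle is driven by SNARE proteins. A SNARE of the vesicle (a Vamp) zips together with SNAREs of the target membrane (a syntaxin and a Snap protein) and pulls both membranes into fusion. Syntaxin-binding and Unc13 proteins prepare the syntaxin, complexins hold the complex, and synaptotagmins sense calcium, while Nsf and its adaptors take used complexes apart. Neuroblastoma cells keep secretory vesicles of both kinds, small clear ones and dense-core granules that hold peptides and catecholamines.

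Levels are given as FPKM, the fragments on a gene scaled to its length and to the depth of the library, which allows levels of different genes to be set side by side. Fold changes were fitted on log2(FPKM + 1) with limma over every gene with a mean of at least 1 FPKM, and a gene was called at an adjusted p under 0.05. The added 1 FPKM makes fold changes of low genes smaller than they are. Between 13541198 and 15122063 reads on genes per library stood behind these values. Library pairs correlated at 0.980 to 0.986 within the groups and at 0.967 to 0.977 between them. A single short gene, Gm23935, took 20.1 to 20.7% of the summed FPKM under si-NC and 13.5 to 18.8% under si-circRtn4. Rescaled to TPM without this gene, 10 of the 11 calls given below were made, all but Rab3d.

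Of the 88 genes, 61 reached the minimum level and were tested. In the si-circRtn4 libraries 9 of them were lower and 2 were higher. Lower were Sv2c, Syn2, Syt17, Syt1, Snap91, Vamp3, Stx1a, Syn1 and Rab3d, and higher were Syt4 and Napb. The called genes made up 18.03% of the exocytosis genes tested, where 9.19% of all 12749 genes tested were called. For lower genes the share was 14.8% against 4.82%, and for higher genes it was 3.28% against 4.36%. The median log2 fold change was -0.10 over the 61 genes and 0.0020 over all genes tested, and 40 of the 61 had a negative value. Groups did not overlap in 24 of the 61 genes (39.3%), against 31.7% of all genes. As these are bulk values, fewer cells of a kind and less RNA per cell cannot be told apart.

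**Figure D1:**
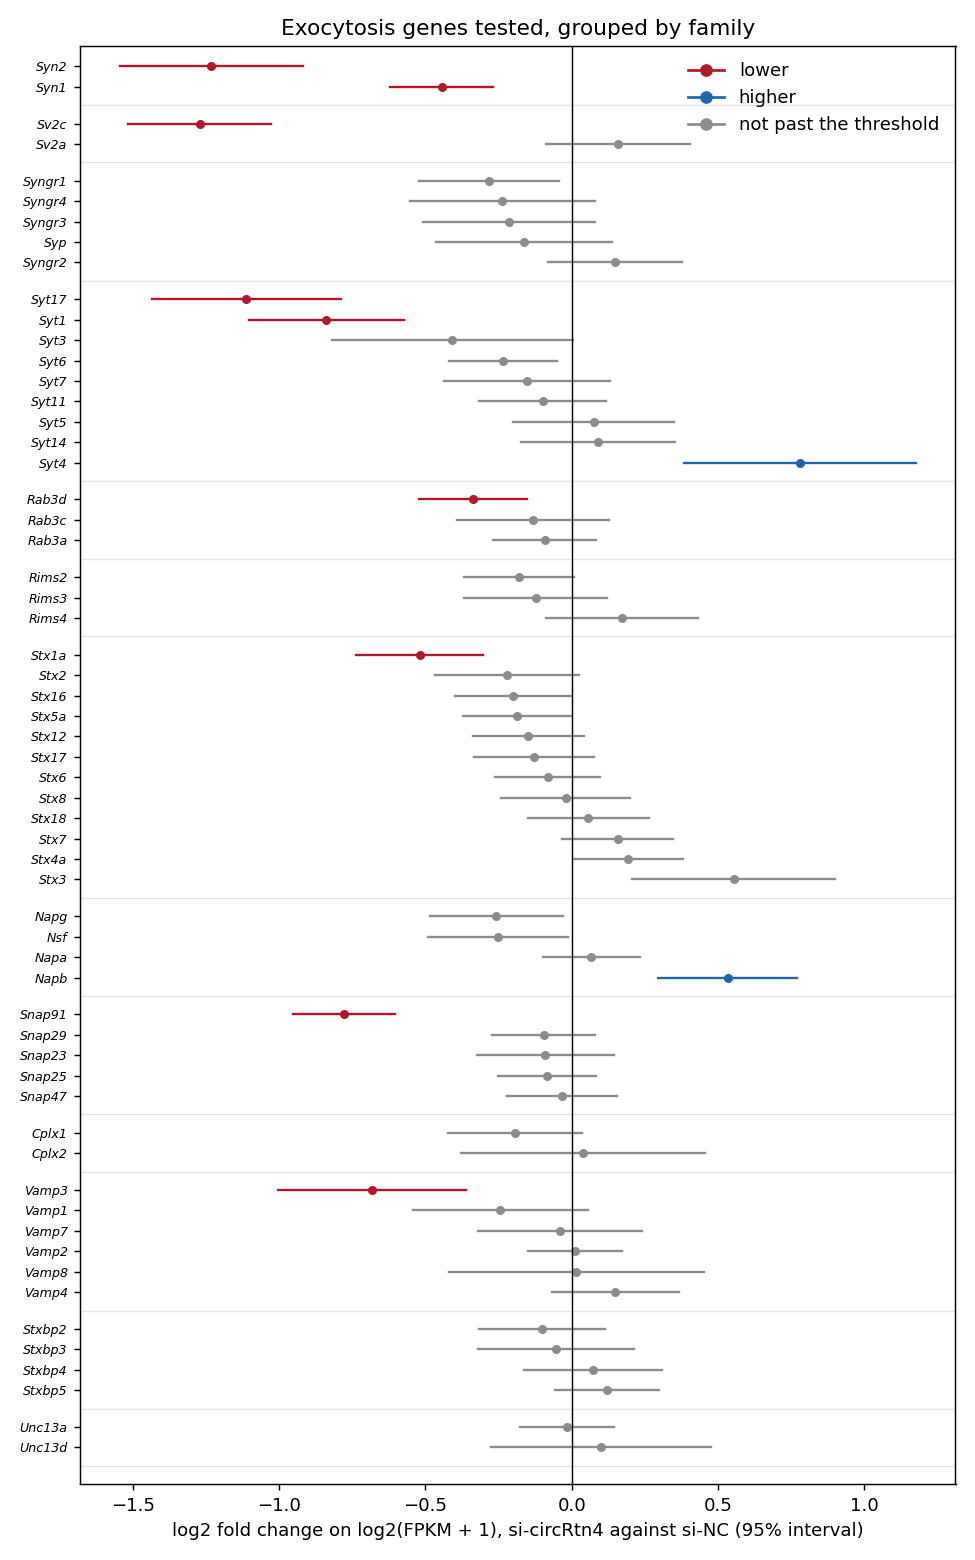
Log2 fold change of 59 exocytosis genes tested, si-circRtn4 against si-NC, on log2(FPKM + 1) (horizontal axis), with points for the fitted value and lines for its 95% interval, grouped by gene family. The 9 lower genes (red) are spread over 7 families, and 2 genes (Syt4 and Napb, blue) are higher.

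The called genes differed in how firmly they held. Sv2c, Syn2, Syt17, Syt1 and Snap91 were past the threshold in each of 14 alternative analyses. Stx1a was past it in 12, Syn1 in 11, Vamp3 in 9, Syt4 and Napb in 8 each, and Rab3d in 5. Their adjusted p in limma went up to 0.0696 for Stx1a, 0.0661 for Syn1, 0.0907 for Vamp3, 0.112 for Syt4, 0.0771 for Napb and 0.127 for Rab3d. Without si-NC replicate 2, Sv2c, Syn2, Syt17, Syt1 and Snap91 alone were called, which is 8.20% of the 61 genes against 2.98% of all genes (1.70% lower and 1.28% higher). Without si-circRtn4 replicate 1 or without si-circRtn4 replicate 2, Stx1a was called beside these 5, and the 2 higher genes were not. With a minimum of 5 FPKM, the same 11 genes were called of 51 tested (21.6%), against 12.1% of all genes (6.46% lower and 5.60% higher). With replicate number as a block, 14 exocytosis genes were lower and 3 higher, where 19.0% of all genes were called (9.75% lower and 9.29% higher). The 6 genes gained in this fit were Syngr1, Napg, Nsf, Syt6 and Stx2 among the lower and Stx3 among the higher.

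The vesicle membrane held the largest fall. Sv2c (chr13:95954594-96132577, minus strand, GRCm38 as all coordinates here) encodes an SV2 glycoprotein of synaptic and secretory vesicles, a transporter-like protein that also serves as an entry receptor for botulinum toxin. Its level was 100.2, 106.7 and 102.0 FPKM under si-NC and 38.7, 39.0 and 49.3 FPKM under si-circRtn4. All si-circRtn4 libraries lay far below all si-NC libraries. The means were 103 ± 3.36 and 42.3 ± 6.04 FPKM (SD, n = 3 each), so that 41.1% of the si-NC level was left. The log2 fold change was -1.27 (SE 0.10, limma adjusted p = 0.00139). Sv2a, the widely expressed paralog, was not called. It stood at 9.40 ± 1.14 and 10.6 ± 0.936 FPKM (SD, n = 3 each), with a 95% interval of the log2 difference from -0.09 to 0.40. Sv2b was at most 0.017 FPKM. Sv2c was thus the main SV2 gene of these cells by level in both groups.

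Synaptophysin and the synaptogyrins are tetraspan proteins of the same membrane. None of the 5 was called by limma, and Syngr1 alone had an unadjusted p under 0.05. limma-voom called none of them either. Syp had 17.1, 16.5 and 21.7 FPKM under si-NC and 14.9, 15.2 and 18.9 FPKM under si-circRtn4, and the groups overlapped (log2 fold change -0.16, adjusted p = 0.482). Syngr1 was at 38.4 ± 4.08 and 31.3 ± 2.64 FPKM (SD, n = 3 each) without overlap. Its log2 fold change of -0.28 had a limma adjusted p of 0.132, and of 0.0230 in the blocked fit. Syngr2, the form found outside neurons too, had a positive value of 0.15 (adjusted p = 0.395).

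Both tested synapsins fell. Synapsins are phosphoproteins that coat synaptic vesicles and tie them to each other and to actin. Syn2 (chr6:115134902-115282006, plus strand) was at 43.2, 47.2 and 49.0 FPKM under si-NC and at 16.3, 18.2 and 23.8 FPKM under si-circRtn4. Every treated library was under 25 FPKM and every control library above 40 FPKM. This was a change of -1.23 on the log2 scale (SE 0.13, limma adjusted p = 0.00324), and 41.8% of the control mean remained. Syn1 (chrX:20860511-20921004, minus strand) went from 24.6, 23.7 and 21.5 FPKM to 16.4, 16.7 and 17.3 FPKM, again without overlap. This was a log2 fold change of -0.44 (SE 0.076, limma adjusted p = 0.0144). The summed level of the family was 68.2 to 71.3 FPKM under si-NC and 33.1 to 41.4 FPKM under si-circRtn4. Syn3 was below the minimum, at 0.269 to 0.435 FPKM. Exons of Syn2 share 90 bases with Timp4 on the other strand, which was at most 1.06 FPKM, and exons of Syn1 share 9 bases with Araf.

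Of 9 synaptotagmins tested, 2 fell, 1 rose and the other 6 were not called. Syt1 (chr10:108497650-109010982, minus strand), the calcium sensor of fast release, had 25.9, 24.6 and 25.2 FPKM under si-NC and 13.4, 11.7 and 16.3 FPKM under si-circRtn4. Control values lay close together and the treated ones were all lower. On the log2 scale the fall was -0.84 (SE 0.11, limma adjusted p = 0.00673). Syt17 (chr7:118380717-118448222, minus strand), a relative that lacks the membrane span of other synaptotagmins, fell from 13.1 ± 2.33 to 5.48 ± 0.770 FPKM (SD, n = 3 each). Its libraries read 15.4, 13.1 and 10.8 FPKM against 6.36, 4.91 and 5.18 FPKM, a log2 fold change of -1.11 (SE 0.14, limma adjusted p = 0.00498). These 2 genes fell while Syt4 rose.

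Syt4 encodes a synaptotagmin of the Golgi and of dense-core vesicles whose first C2 domain does not bind calcium in the usual way. It was at 20.5, 19.2 and 30.9 FPKM under si-NC and at 42.2, 36.5 and 42.2 FPKM under si-circRtn4. Control replicate 3 stood above the other control libraries, yet the groups did not overlap. The log2 fold change was 0.78 (SE 0.17, limma adjusted p = 0.0318). An annotated antisense gene, Gm26658, shares 566 exonic bases with Syt4 and was at 0.051 to 0.17 FPKM. Syt1 stood above Syt4 in si-NC replicates 1 and 2 and below it in si-NC replicate 3, and Syt4 exceeded Syt1 in every si-circRtn4 library.

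Syt6 and Syt11 were the most abundant of the family. Syt6 was at 54.9 ± 3.59 and 46.5 ± 2.38 FPKM (SD, n = 3 each) and was called in the blocked fit only (limma adjusted p = 0.0464, against 0.114 without the block). Syt11, which does not bind calcium, was at 51.8 ± 2.68 and 48.4 ± 5.25 FPKM (adjusted p = 0.557). The other tested synaptotagmins, Syt3, Syt5, Syt7 and Syt14, were not called. Syt7, a slow calcium sensor of granule release, had a log2 fold change of -0.15 with a 95% interval from -0.44 to 0.13. The summed synaptotagmin level ranged from 190.9 to 210.5 FPKM under si-NC and from 172.0 to 197.7 FPKM under si-circRtn4, and these ranges overlapped.

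**Figure D2:**
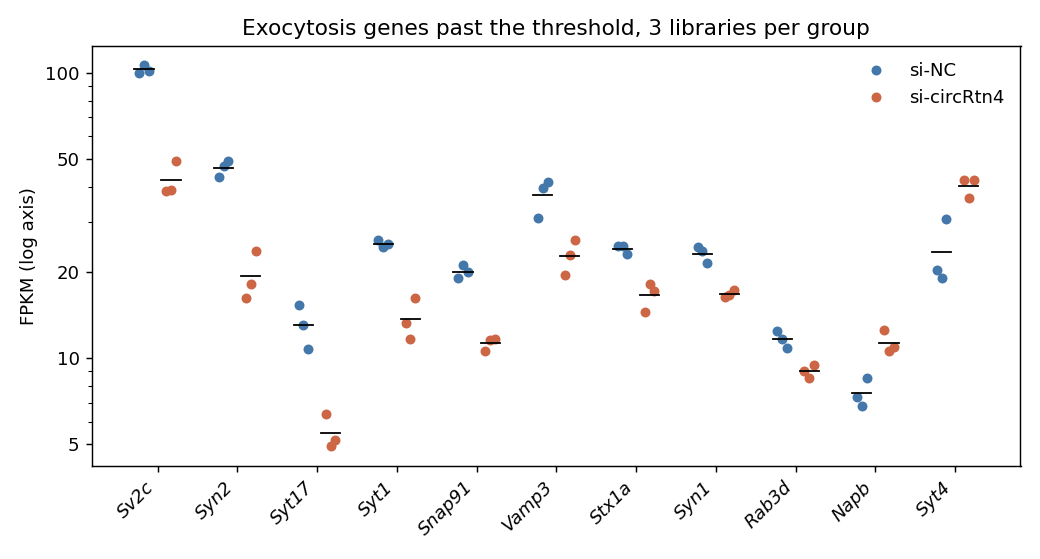
FPKM on a log axis for the 11 called exocytosis genes, with 1 point per library (si-NC blue, si-circRtn4 orange, n = 3 each) and a line at each group mean. In each gene the groups do not overlap, from Sv2c (38.7 to 49.3 against 100.2 to 106.7 FPKM) to Syt4 at the right.

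Among the SNARE proteins themselves, Stx1a and Vamp3 fell. Stx1a (chr5:135023482-135051100, plus strand) is the plasma membrane syntaxin of regulated release. It was at 24.8, 24.8 and 23.1 FPKM under si-NC and at 14.6, 18.2 and 17.2 FPKM under si-circRtn4, where 68.7% of the control mean remained. The log2 fold change was -0.52 (SE 0.093, limma adjusted p = 0.0172). Vamp3 (cellubrevin, chr4:151047300-151057963, minus strand) is the vesicle SNARE of recycling endosomes and of constitutive traffic. Its libraries read 31.1, 39.4 and 41.5 FPKM against 19.6, 23.0 and 26.1 FPKM, a log2 fold change of -0.68 (SE 0.14, limma adjusted p = 0.0251). Both groups of Vamp3 spread widely, and they did not overlap.

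The partners of these SNAREs did not pass the test. Vamp2, the vesicle SNARE of neuronal release, was at 29.1, 28.5 and 26.5 FPKM under si-NC and at 28.4, 27.8 and 28.6 FPKM under si-circRtn4. The groups lay on top of each other, with a 95% interval of the log2 difference from -0.15 to 0.17. Snap25 was at 23.2, 22.2 and 21.2 FPKM and at 21.7, 19.9 and 21.2 FPKM, with an interval from -0.25 to 0.08. For both genes, a fall as large as that of Stx1a lies outside the interval. Stx3, a syntaxin of apical and granule membranes, was low. It read 0.928, 0.668 and 0.713 FPKM under si-NC and 1.71, 1.83 and 1.26 FPKM under si-circRtn4, on 55 to 163 reads. Its log2 fold change was 0.55 (limma adjusted p = 0.0601). It was called as higher in 3 of 13 alternatives, with the block (adjusted p = 0.0467), as TPM and in limma-voom (log2 fold change 1.07, adjusted p = 0.00986).

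Other syntaxins were not called. Stx16 of the trans-Golgi network had 49.8 ± 2.52 and 43.2 ± 3.65 FPKM (SD, n = 3 each, limma adjusted p = 0.190). Stx2 had 20.8 ± 2.52 and 17.7 ± 1.62 FPKM with overlap (limma adjusted p = 0.239, and 0.0420 with the block). Stx4a, the syntaxin of constitutive exocytosis, had a log2 fold change of 0.19 (adjusted p = 0.181). Snap23, Snap29 and Snap47 had log2 fold changes of -0.09, -0.10 and -0.03. In all, 13 syntaxins were tested, of which 5 had positive and 8 negative values.

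Snap91 (chr9:86765923-86880654, minus strand) is caught by the naming rule but encodes AP180, a clathrin assembly protein that helps to retrieve Vamp proteins after fusion, and not a SNARE. It was at 19.2, 21.2 and 19.997 FPKM under si-NC and at 10.6, 11.6 and 11.7 FPKM under si-circRtn4. Both groups were tight and far apart. limma gave a log2 fold change of -0.78 (SE 0.075, adjusted p = 0.00269).

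The factors that prepare and clamp the fusion complex were not called. Of the tested complexins, Unc13, Rims and syntaxin-binding genes, 0 passed in limma or in limma-voom, and 0 had an unadjusted p under 0.05. Unc13a (Munc13-1), which opens syntaxin, had 32.3, 30.5 and 30.7 FPKM under si-NC and 31.7, 29.4 and 31.5 FPKM under si-circRtn4. The groups overlapped, and the 95% interval of the log2 difference ran from -0.18 to 0.15. Cplx1, the highest of the 88 genes by the mean of all 6 libraries but below Sv2c in each si-NC library, was at 81.6 ± 5.49 and 71.4 ± 7.44 FPKM (SD, n = 3 each) with overlap (limma adjusted p = 0.265). Cplx2 was at 10.2 ± 1.62 and 10.7 ± 2.82 FPKM, with an interval too wide to exclude a change (-0.38 to 0.45). Of the Rims genes, Rims1 was at most 0.048 FPKM. Rims2, Rims3 and Rims4 had log2 fold changes of -0.18, -0.12 and 0.17 with limma adjusted p over 0.2.

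**Figure D3:**
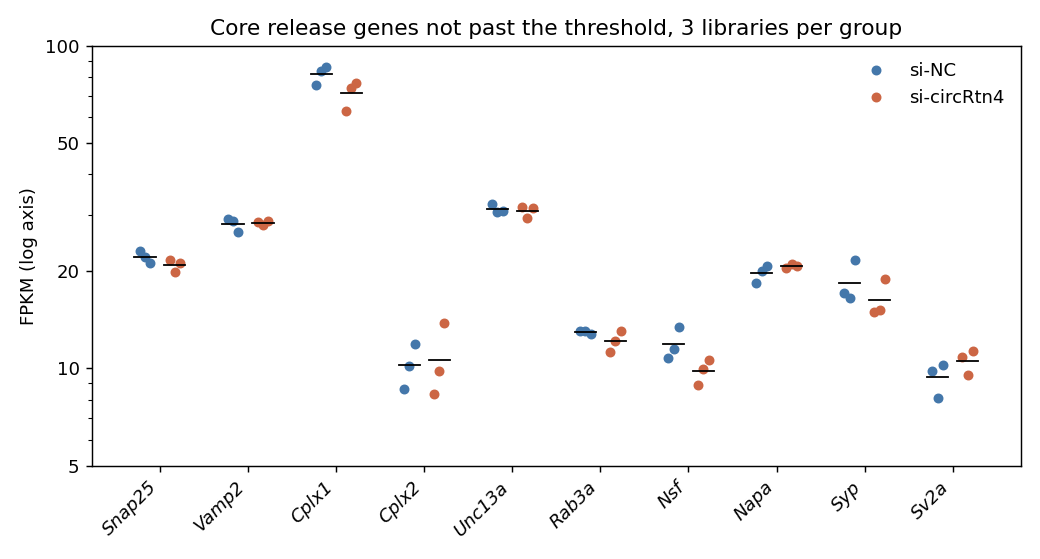
FPKM on a log axis for 10 core release genes that were tested and not called, with 1 point per library (si-NC blue, si-circRtn4 orange, n = 3 each) and a line at each group mean. Points of both groups overlap for Vamp2, Snap25 and Unc13a, while Nsf shows no overlap without passing the threshold.

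The Rab3 GTPases mark secretory vesicles. Rab3d (chr9:21907491-21918192, minus strand), the form of secretory granules in many gland cells, was at 12.4, 11.7 and 10.9 FPKM under si-NC and at 9.03, 8.54 and 9.51 FPKM under si-circRtn4. The fall was small (log2 fold change -0.34, SE 0.079, limma adjusted p = 0.0393). Rab3a was at 13.0 ± 0.163 and 12.1 ± 0.915 FPKM (SD, n = 3 each, adjusted p = 0.496), and Rab3c at 16.4 ± 0.0323 and 15.0 ± 2.54 FPKM (adjusted p = 0.507).

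Nsf is the ATPase that pulls used SNARE complexes apart, and the SNAP adaptors Napa, Napb and Napg bring it there. Napb (chr2:148693985-148732467, minus strand), the adaptor enriched in brain, rose from 7.30, 6.82 and 8.55 FPKM to 12.5, 10.6 and 10.9 FPKM. The lowest treated library was above the highest control library. On the log2 scale the rise was 0.53 (SE 0.10, limma adjusted p = 0.0206). Napa, the ubiquitous form, was at 19.7 ± 1.18 and 20.7 ± 0.293 FPKM (SD, n = 3 each, adjusted p = 0.606). Nsf had 10.8, 11.5 and 13.4 FPKM and 8.88, 9.94 and 10.6 FPKM, and Napg had 10.3, 10.9 and 12.6 FPKM and 8.49, 9.10 and 10.1 FPKM. Neither was called in limma (adjusted p = 0.174 and 0.151), whereas both were lower in the blocked fit (adjusted p = 0.0374 and 0.0313).

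Paralogs were also set against each other within each library, since a plain FPKM ratio does not depend on the scaling between libraries. For 10 pairs, the log2 ratio of FPKM + 1 was compared between the groups with a two-sided exact permutation test, for which 3 libraries against 3 give p = 0.1 at the least. Of the 8 pairs given here, the groups did not overlap in 6 (p = 0.1 each in the exact test, 0.125 after Benjamini-Hochberg adjustment over all 10), so that none could pass. Each of these 6 pairs holds a gene already called above, so the ratios are no separate evidence. Syn1 to Syn2 rose most, by 0.79 on the log2 scale. Its plain FPKM ratio was 0.571, 0.502 and 0.439 in si-NC and 1.01, 0.919 and 0.729 in si-circRtn4 libraries. Vamp2 to Vamp3 went from 0.938, 0.724 and 0.638 to 1.45, 1.21 and 1.10, so that Vamp3 was the higher in each control library and Vamp2 in each treated one. Stx1a to Stx4a, the syntaxin of constitutive release, went from 2.64, 2.44 and 2.50 to 1.27, 1.55 and 1.69. Napb to Napa went from 0.396, 0.340 and 0.412 to 0.613, 0.506 and 0.528. Snap25 to Snap23 stayed between 3.48 and 4.42 with overlap (exact p = 1), and Cplx1 to Cplx2 also overlapped (exact p = 0.3).

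**Figure D4:**
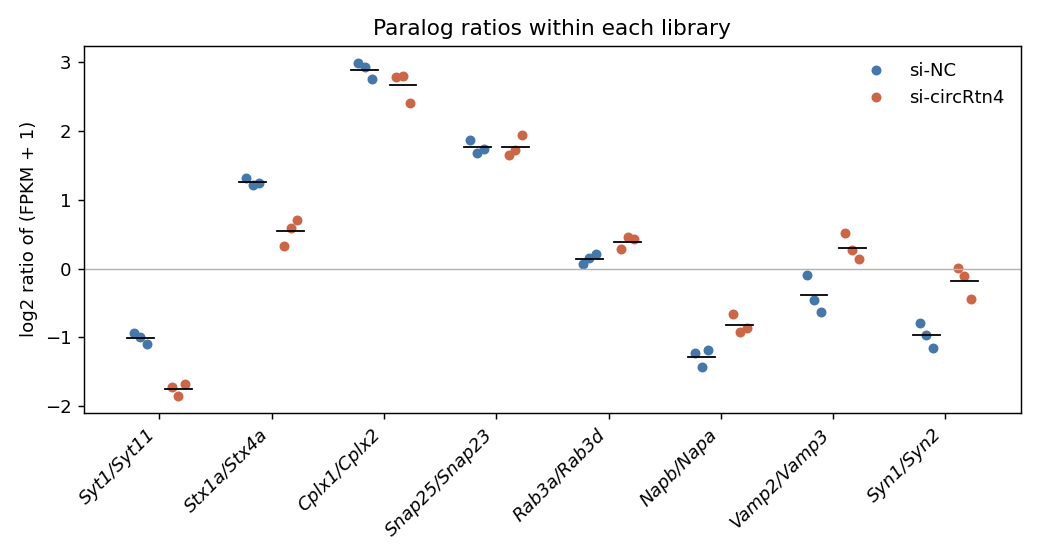
Log2 ratio of (FPKM + 1) of 8 paralog pairs (vertical axis), with 1 point per library (si-NC blue, si-circRtn4 orange, n = 3 each) and a line at each group mean. The groups are apart in 6 pairs and overlap for Snap25/Snap23 and Cplx1/Cplx2.

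The 27 genes below a mean of 1 FPKM were not tested. Of these, 9 were at 0 in all 6 libraries, namely Cplx4, Stxbp6, Syt10, Syt13, Syt16, Sytl2, Sytl4, Sytl5 and Vamp9. The synaptotagmin-like genes, which link Rab27 to granules, were absent from the tested set altogether, and Sytl1 was the highest at 0.386 to 0.684 FPKM. Stx11 (0.523 to 1.14 FPKM) and Stxbp5l (0.528 to 0.767 FPKM) were the nearest to the minimum. Syt2, Syt9, Rab3b, Unc13b and Cplx3 were each below 0.4 FPKM in every library.

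Other genes of vesicle traffic were read from 5 lists. Of 16 tested priming and active zone genes, 2 were lower and none was higher. These were Rab27a, a GTPase of granule docking (18.6 ± 1.09 to 13.0 ± 1.11 FPKM, log2 fold change -0.49, limma adjusted p = 0.0158), and the active zone scaffold Erc2 (-0.46, adjusted p = 0.0364). Cadps and Cadps2, the granule priming factors, were at most 0.041 FPKM. Of 8 tested vesicle membrane and transporter genes, 2 were lower. Slc18a2, the vesicular monoamine transporter, read 19.3, 18.2 and 21.6 FPKM under si-NC and 7.67, 6.96 and 9.69 FPKM under si-circRtn4 (log2 fold change -1.19, SE 0.12, limma adjusted p = 0.00283). Scamp2, a secretory carrier membrane protein, changed by -0.37 (adjusted p = 0.0412).

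A further list held SNAREs, SM proteins and tethering subunits such as Vps11 and Vps41, all of other transport steps. Of its 22 tested genes, Gosr2 of the Golgi (-0.35, limma adjusted p = 0.0231) and Sec22b of the endoplasmic reticulum (-0.30, adjusted p = 0.0380) were lower. Of the 10 tested exocyst genes, which tether vesicles to the plasma membrane, limma called 0. An unadjusted p under 0.05 was reached by 2, both higher, and limma-voom called 1, Exoc5. Log2 fold changes were positive for 8 of the 10. Among 26 tested genes of vesicle endocytosis, the phosphatase Synj1 was lower (-0.31, adjusted p = 0.0435) and the adaptor Ston1 higher (0.58, adjusted p = 0.0458). The median log2 fold change was -0.04 for the list of SNAREs, SM proteins and tethering subunits. It was 0.07 for the exocyst, -0.04 for priming, -0.05 for vesicle membranes and -0.04 for endocytosis, against 0.0020 over all genes. The lists together held 7 lower genes and 1 higher gene of 82 tested. Both directions together made 9.76%, against 9.19% of all genes (4.82% lower and 4.36% higher). The share over both directions was thus near that of all genes. The split by direction rested on few calls, and the numbers of lower and higher calls changed with the settings given next. With the replicate block, 13 were lower and 2 higher, where 19.0% of all genes were called (9.75% lower and 9.29% higher). Rescaled to TPM, 2 lower genes and 1 higher gene were called in the lists (3.66% of the 82), where 10.8% of all genes were called. Without si-NC replicate 2 or without si-circRtn4 replicate 2, 1 lower gene was called, where 2.98% and 3.83% of all genes were called. Without si-circRtn4 replicate 1, 2 were lower, where 4.19% of all genes were called. The lists of vesicle genes shared the libraries of the comparison above and are no separate evidence.

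The cell identity was checked with markers. Of 17 neuroblastoma and neuron markers, 14 were tested, and Tubb3 (308.0 to 601.0 FPKM), Phox2a and Hand2 were abundant, while Nefl was at 0. Chgb, Chga, Dbh, Th and Phox2a were lower and Elavl4 was higher, with a median log2 fold change of -0.27 over the 14. The summed level of this list was 2643 to 2917 FPKM under si-NC and 1186 to 1706 FPKM under si-circRtn4. Most of this difference came from Chgb, at a mean of 1300 FPKM under si-NC and 364 FPKM under si-circRtn4. Tubb3, Stmn2, Gata3 and Hand2 were among the markers not called. Chga, a core protein of dense-core granules, went from 254.6 ± 21.6 to 85.2 ± 6.06 FPKM (SD, n = 3 each). The 7 astrocyte markers summed to at most 0.427 FPKM and the 6 immune markers to at most 1.40 FPKM in any library. Oligodendrocyte markers summed to 5.03 to 5.70 and 3.82 to 5.48 FPKM, mostly from Mbp. Fibroblast markers summed to 1.51 to 3.00 FPKM under si-NC and 4.34 to 6.59 FPKM under si-circRtn4, mostly from Pdgfrb, which was higher (log2 fold change 0.92, limma adjusted p = 0.0316), while Thy1 was at 0 and Col1a1 at most 0.257 FPKM. The part of these marker changes in the exocytosis values was not tested.

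Rtn4, the host gene of circRtn4, was at 65.9 ± 4.49 and 56.5 ± 6.32 FPKM (SD, n = 3 each). Whether circular RNA enters this gene-level value depends on how the RNA was selected, which is not given in the sources used here, so that the knockdown itself cannot be read from it. Its adjusted p in limma was 0.216, and 0.0447 with the block. Chd5, the gene that the study followed, was at 10.4 ± 1.22 and 3.83 ± 0.262 FPKM (SD, n = 3 each).

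Seed sites were looked up because a small RNA can lower transcripts that pair with its bases 2 to 8. Earlier results on seed sites were known when this search was chosen. The study's microRNA and its siRNA are shown with these seed bases in capitals. The guide was assumed to be the strand that pairs with the listed one, read in reverse complement, and in the listed strand the capitals mark the bases that pair with the guide's seed.
miR-24-3p: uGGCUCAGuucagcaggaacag
si-circRtn4, listed strand: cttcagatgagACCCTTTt
si-circRtn4 guide: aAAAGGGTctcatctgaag
The 7-base site for miR-24-3p is CTGAGCC and that for the guide is ACCCTTT. Only the transcript strand was searched, within the longest 3′ UTR that GENCODE M21 annotates for a gene, which 60 of the 61 tested exocytosis genes have. The miR-24-3p sequence is from RefSeq (GRCm38.p6).

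A guide site was found in 9 of the 60 genes (15.0%), against 12.5% of 10694 genes tested. Of the 9 lower genes 4 held one, namely Snap91, Stx1a, Sv2c and Vamp3, as did 5 of the 49 genes not called and neither of the 2 higher genes. The share with a site among all lower genes of the data was not counted. The 4 sites in lower genes are printed with up to 11 bases on either side and the site in capitals, 5′ to 3′ on the transcript, with GRCm38 coordinates of the guide site (for Stx1a, of the stretch from a miR-24-3p site to the guide site).
Snap91, minus strand, chr9:86766088-86766094: agatgtatggtACCCTTTaaagtggttgt
Sv2c, minus strand, chr13:95956981-95956987: acagatatttaACCCTTTgtagtgtttct
Vamp3, minus strand, chr4:151048381-151048387: aaccagaaataACCCTTTaagaagttttt
Stx1a, plus strand, chr5:135050535-135050553: tgggcCTGAGCCtagtgACCCTTTactaa
In Snap91, Vamp3 and Stx1a the site is followed by A, which lengthens it to an 8mer, and in Sv2c it is not. The share of such 8mers among all genes or all lower genes was not counted. In Stx1a a miR-24-3p site lies 5 bases before the guide site, and both are in capitals.

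Among the genes not called, Stx6, Syngr1, Syp and Unc13a hold a guide site, each without the following A. Their log2 fold changes ran from -0.28 for Syngr1 to -0.01 for Unc13a. The site of Unc13a, the nearest of these to no change, is shown for comparison.
Unc13a, minus strand, chr8:71628724-71628730: ataaagggatgACCCTTTtctaattggct
For miR-24-3p, 16 of the 60 genes (26.7%) held a site, against 19.6% of all genes. The 3′ UTRs of the exocytosis genes were longer, with a median of 1959 bases against 1169. Stx1a was the single called gene with a miR-24-3p site, and the other 15 were not called. Stx5a held 3 sites and had a log2 fold change of -0.19 (limma adjusted p = 0.192). These matches describe the annotated sequence, and their part in the levels was not tested.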

How the data were processed

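The table that the authors deposited lists each gene's FPKM beside its length, position and biotype. Their processing notes name Bowtie 0.12.2 and the builds mm8 and mm9, but 98.1% of the 54532 genes have the coordinates of GENCODE M21 (GRCm38). The counting tool and strand setting are not given in the sources used here. FPKM times gene length gave whole multiples of 1 step (tolerance 0.01 of a read) for 100% of the values, from which reads were recovered. The 6 columns of other samples were not used. Groups and replicate numbers came from the sample titles.

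log2(FPKM + 1) was fitted with limma 3.58.1 in R 4.3.3 (lmFit, eBayes with trend) for the 12749 genes whose mean reached 1 FPKM, with Benjamini-Hochberg adjustment over them. Exact permutation tests used scipy 1.17.1. The fit was tested on simulated data. Deviations from group means correlated at 0.331, 0.190 and 0.226 for equal replicate numbers and at most 0.00913 otherwise. The numbers were therefore taken as pairs in the blocked fit, from the data and not from the labels. Deviations within a group cancel out, so the low values for unequal numbers follow in part from the positive ones. The blocked fit used the same values that chose the pairs, so its adjusted p-values rest on a pairing that the labels do not give.

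Alternatives were a pseudocount of 0.1, no filter, a minimum of 5 FPKM, TPM with and without Gm23935, quantile normalization, limma-voom on recovered reads (1625 genes called), the block, and leaving out each library. Named were all called members, a list of core release genes, the 5 most abundant members, the paralogs in the pairs, the 3 largest called changes of each list, Rtn4 and Chd5; other members were named after their values were seen. Members and lists were chosen with earlier results of these data known. Near-identical copies can share reads: the pseudogene Stxbp3-ps read 0.093 to 0.754 FPKM. A few genes that the rule names are not reported here, though they enter the fits and counts.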

Additional observations from a re-analysis of the deposited data

How the results depend on the processing

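Higher exocytosis genes numbered 2, 0 with no filter on low values (1.66% of all genes called), and 3 as TPM, in limma-voom and with the replicate block. Lower exocytosis genes numbered 9, 6 with no filter on low values, 8 as TPM, and 14 with replicate number as a block, where 9.75% of all genes were lower. With each library left out in turn, 0 to 2 genes were higher and 5 to 8 lower, with 0 higher in 5 of the 6 fits, while the share of all genes called fell from 9.19% to between 2.98% and 6.48%. In the 5 lists of other vesicle genes, the 1 higher gene became 0 with a pseudocount of 0.1, no filter, a minimum of 5 FPKM or TPM without Gm23935, 3 in limma-voom, 2 in the blocked fit and 0 to 1 without 1 library. The 7 lower genes became 3 with no filter, 2 as TPM, 13 in the blocked fit and 1 to 4 without 1 library. The cause was not tested, except that fewer libraries enter the leave-one-out fits.

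Genes that were not called and lay near 0 changed sign. Snap25 (-0.08) was at 0.0060 as TPM. Unc13a (-0.01) was at 0.076 as TPM, 0.0068 as TPM without Gm23935 and 0.0079 in limma-voom. Over the fits without 1 library, Unc13a ran from -0.034 to 0.019, Cplx2 from -0.15 to 0.18, Vamp2 from -0.028 to 0.039, and the log2 ratio of Snap25 to Snap23 from -0.078 to 0.066. No called exocytosis gene changed sign in any alternative. TPM moved the median of all genes to 0.082 and that of the exocytosis genes to -0.010. Beyond the genes named for it, the replicate block changed no other call among the exocytosis genes. A gene near 1 FPKM rested on few reads, such as 55 to 163 for Stx3, and changes there could be missed at this depth.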
